A study of Mus musculus with 9 samples.

Results

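The genes described are 6 genes of the joint interzone, followed through cultures of embryonic mouse sclerotome: the growth factor genes Gdf5 and Gdf6, the Wnt ligand genes Wnt4 and Wnt9a, and the transcription factor genes Erg and Osr2. Every probe set was taken that the array annotation assigns to 1 of these 6 symbols alone. This gave 9 probe sets for 5 of the 6 genes, out of 45037 probe sets and 18193 genes. Gdf6 had 0 such probe sets and has no value here. Gdf5 is read by 1 probe set and the other 4 genes by 2 each.

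The joint interzone is the band of flattened, densely packed cells that marks the site of a future synovial joint, where cells leave the path to cartilage. GDF5 and GDF6 are secreted ligands of the BMP family that mark this band and are needed for many joints, and Wnt ligands made there signal through β-catenin and hold back cartilage formation. In the axial skeleton, Gdf5 and Erg are also transcribed in and around the forming intervertebral disc (IVD).

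Cultures with BMP4 at 50 ng/ml and cultures with TGF-β1 at 5 ng/ml, each kept with the factor for 8 hours, were compared with untreated cultures on 3 Affymetrix mouse genome arrays in each of the 3 groups. All cultures came from wild type E11.5 embryos. The sclerotome ventral to the neural tube, the somite tissue that gives rise to vertebrae and IVD, was dissected free of notochord, dissociated and plated as micromass cultures, in which mesenchymal cells are packed at high density and can form cartilage. The records of the arrays put the treatment after a night in culture while the culture methods put it after attachment of the cells, and the 8 hours are counted from whichever applies. The study set up the experiment 3 separate times, so p-values measure the spread between repeats, and whether an array numbered 1, 2 or 3 in one group belongs to the same repeat as that number in another is not stated.

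Each deposited value is a log2 signal from which the median of that probe set over the 9 arrays has been subtracted. Differences between arrays can thus be read, and levels cannot: neither the abundance of a gene nor its presence in the cultures can be told from these values. This holds for the sclerotome markers too, and whether the cultures held interzone cells cannot be told, so the members are called by the name usual for them. Of 16 BMP response genes 13 were higher with BMP4, where 3.45% of all genes were called higher. Of 14 TGF-β response genes 9 were higher with TGF-β1, where 2.54% of all genes were. These lists were chosen with earlier results of these data known, so the counts are no independent check of the treatments. Sclerotome genes differed between groups, with 0 of 11 higher and 6 lower with BMP4, and 0 higher and 1 lower with TGF-β1 (0 and 2 with the replicate number fitted as a block, 0 and 0 without the arrays numbered 2). Pax1, a transcription factor gene of ventral sclerotome, was 2.25-fold lower with BMP4 (log2 difference -1.17 ± 0.25 SE, adjusted p = 0.024). Arrays numbered 2 carried the highest summed value of 16 cartilage genes in each group, at 20.3 with BMP4 (5.05 and 6.10 on the other arrays), 2.72 with TGF-β1 (-8.42 and -6.46) and 5.16 in untreated cultures (-7.45 and -5.69). Results on the members are therefore also given without these 3 arrays where a call depends on them.

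The promoters of 3 of the 6 genes (Erg, Wnt4 and Wnt9a) are held in the RefSeq promoter table of mouse build GRCm38.p6, as the 250 bases before each annotated start site. Those of Erg are shown because Erg was the member called with both growth factors and because it has 3 separate start sites, spread over 127245 bases of chromosome 16 on the minus strand. Capitals mark the Smad box, CAGAC on either strand, the short motif that Smad3 and Smad4 recognise. The sequences run 5′ to 3′ on the strand of the gene, and the base next to the start site is numbered -1.
Erg start site 1, chr16:95586594-95586843: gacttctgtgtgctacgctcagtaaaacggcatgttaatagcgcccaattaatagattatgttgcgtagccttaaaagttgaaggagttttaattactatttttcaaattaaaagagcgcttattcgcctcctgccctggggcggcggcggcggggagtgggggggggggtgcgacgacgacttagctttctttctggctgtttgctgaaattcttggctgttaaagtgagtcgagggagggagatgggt
Erg start site 2, chr16:95530366-95530615: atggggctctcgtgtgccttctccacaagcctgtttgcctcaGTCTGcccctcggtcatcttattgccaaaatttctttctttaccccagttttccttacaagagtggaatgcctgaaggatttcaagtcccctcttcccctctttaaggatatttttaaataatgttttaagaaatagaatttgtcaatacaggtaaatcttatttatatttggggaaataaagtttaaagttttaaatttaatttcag
Erg start site 3, chr16:95459349-95459598: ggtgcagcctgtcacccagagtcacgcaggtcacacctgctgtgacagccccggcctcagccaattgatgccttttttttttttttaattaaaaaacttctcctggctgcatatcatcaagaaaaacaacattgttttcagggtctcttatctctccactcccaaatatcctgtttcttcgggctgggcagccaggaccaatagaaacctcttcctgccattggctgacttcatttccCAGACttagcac

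The window of start site 1 held 0 Smad boxes, that of start site 2 held 1 at -208 and that of start site 3 held 1 at -12. Of 32851 promoter windows of this length in the table, 42.2% held at least 1, so a match by itself is common. The promoters of Wnt4 (chr4:137277385-137277634, plus strand) and Wnt9a (chr11:59306680-59306929, plus strand) held 0 Smad boxes and 2 copies each of GGCGCC, a GC-rich Smad motif that reads the same on both strands. The copies began at -42 and -21 for Wnt4 and at -118 and -65 for Wnt9a. The start site used for Wnt9a lies downstream of the first base of its gene span (59306849), so the copy at -65 falls inside that span. The window of Erg start site 1 likewise overlaps its gene span, which ends at 95586600, by a few bases. GGCGCC was found in 9.59% of the windows, and the Wnt4 and Wnt9a windows were 85.2% and 84.4% G or C. The palindrome GTCTAGAC and the ETS core CCGGAA were searched on both strands as well and had 0 matches in these 5 windows (0.167% and 12% of all windows). A match is a run of letters and not a measured site, and arrays of this kind, labelled from the 3′ end, do not tell which start site was in use.

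**Figure D1:**
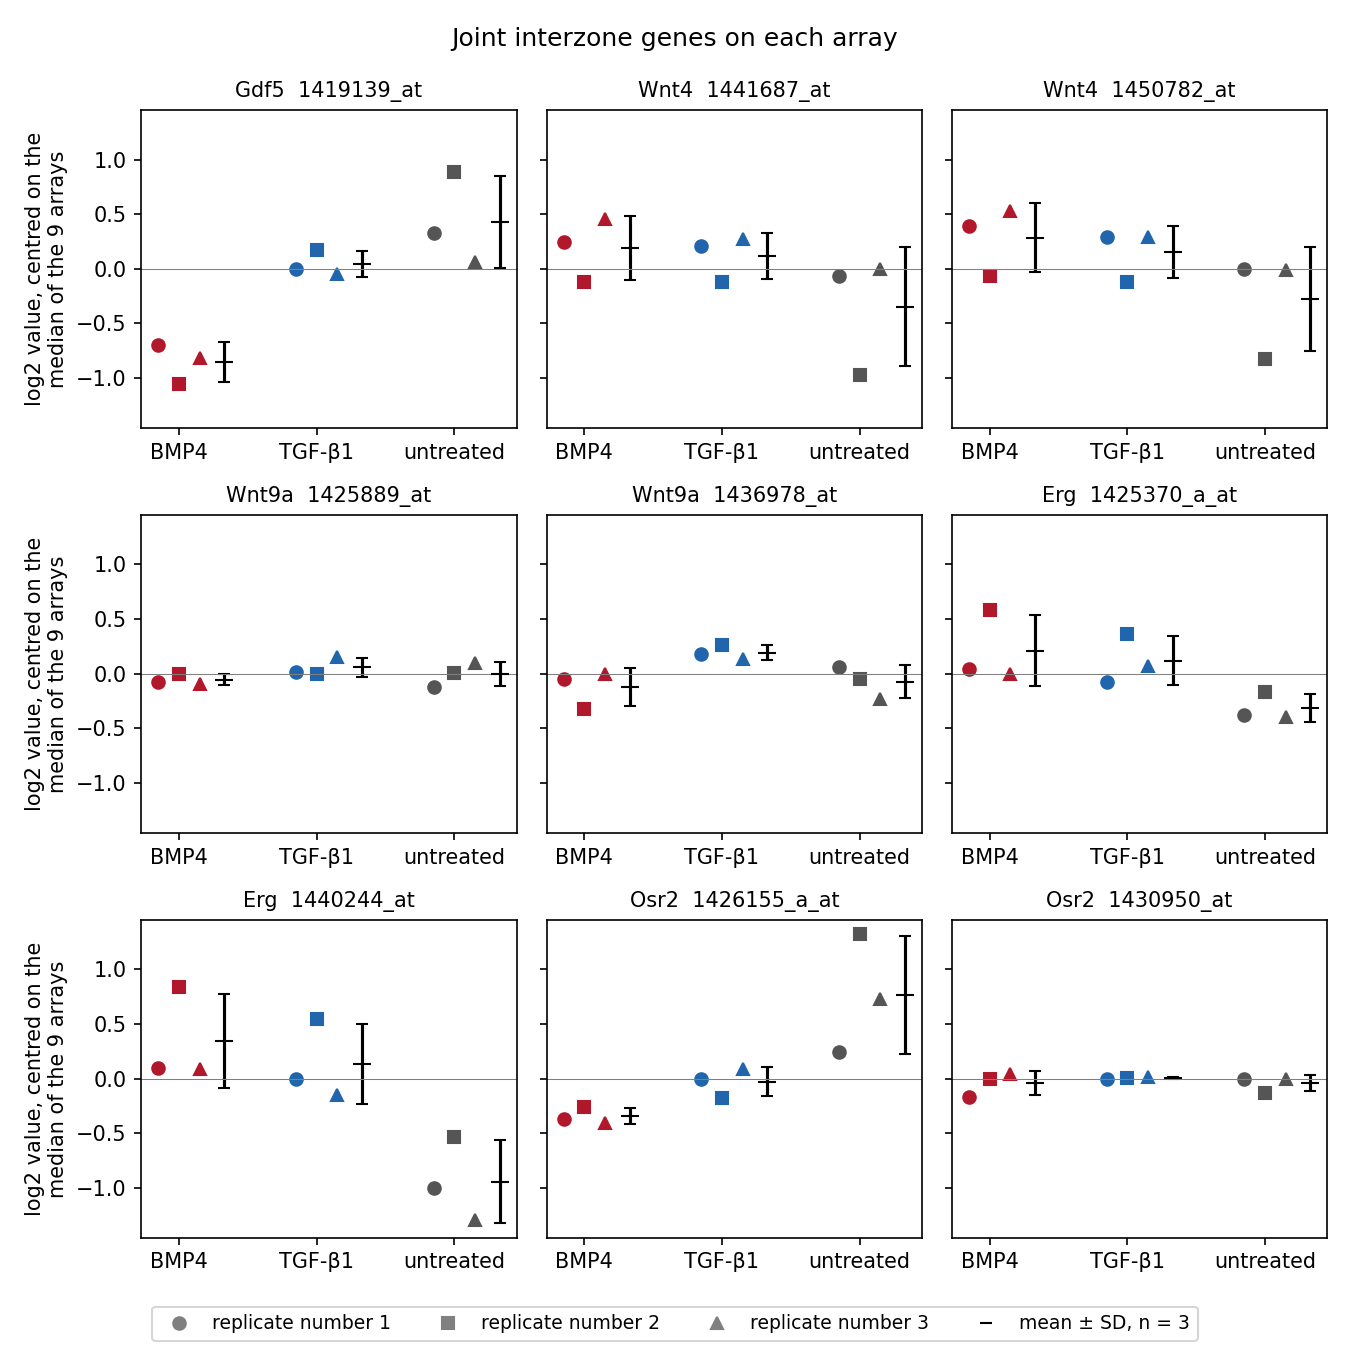
Log2 value of each member probe set (y axis, centred on its median over the 9 arrays) on every array, with BMP4 in red, TGF-β1 in blue and untreated in grey, the marker giving the replicate number and the black bar the mean ± SD of 3 arrays. The BMP4 arrays lie lowest for Gdf5 and for 1 probe set of Osr2, the untreated arrays lie lowest for both probe sets of Erg, and 1 probe set each of Wnt9a and Osr2 is nearly flat.

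Among the members, Gdf5 and Osr2 were called lower and Erg higher with BMP4, while Erg was the only member called with TGF-β1. The calls of Erg and Osr2 each came from 1 of their 2 probe sets. That of Erg with TGF-β1 (limma adjusted p = 0.045) was lost without any 1 of 7 arrays. Osr2 differed by -0.79 with TGF-β1 and was not called (limma adjusted p = 0.072). With the replicate number fitted as a block, Wnt4 was also called higher with both growth factors, and Osr2 was also called lower with TGF-β1. Gdf5 was the one member called between the growth factors. Counted by gene, each gene being read from the probe set that varied most over all arrays, 1 of 5 was higher and 2 of 5 were lower with BMP4, against 3.45% of all genes called higher and 4.51% called lower (7.96% called in all). With TGF-β1, 1 of 5 was higher and 0 were lower, against 2.54% and 4.21% of all genes (6.75% called in all). Between TGF-β1 and BMP4, 1 of 5 was higher and 0 were lower, against 4.73% and 5.38% of all genes (10.1% called in all). A call is an adjusted p under 0.05 in limma, a moderated linear model across all probe sets with Benjamini-Hochberg adjustment. Of the 9 probe sets, 1 was higher and 2 were lower with BMP4, where 2.31% of all probe sets were called higher and 3.13% lower (5.44% in all). With TGF-β1, 1 was higher and 0 lower, where 1.83% and 2.6% were called (4.43% in all). Between TGF-β1 and BMP4, 1 was higher and 0 lower, where 3.41% and 3.49% were called (6.91% in all). With 5 genes, such shares are coarse. The members were also chosen with earlier results of these data known, so neither the shares nor the sizes of difference are independent of that choice. At an unadjusted p under 0.05, 2 of the 5 genes were higher and 1 lower with TGF-β1, where 9.8% and 14.3% of all genes were. At that threshold 2 were higher and 0 lower between TGF-β1 and BMP4, where 11.1% and 14.2% of all genes were.

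Without regard to direction, the median size of the log2 difference over the 5 genes was 1.11 with BMP4, 0.47 with TGF-β1 and 0.32 between TGF-β1 and BMP4, where the medians over all genes were 0.12, 0.14 and 0.14. The signed medians were -0.05, 0.27 and 0.32, beside 0.00, 0.01 and 0.01 over all genes. In each of the 3 comparisons, 3 of 5 genes had no overlap between the groups, where 23.1%, 25.9% and 30% of all genes had none. By probe set this was so for 4, 4 and 3 of 9, where 20%, 21.8% and 25.5% of all probe sets had none. Both growth factor groups were set against the same 3 untreated arrays, so their differences are not independent of each other.

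Gdf5 codes for the ligand that is the usual first marker of the interzone (chr2:155941023-155945367 in GRCm38.p6). Its log2 values were -0.70, -1.06 and -0.82 with BMP4, 0.00, 0.17 and -0.05 with TGF-β1, and 0.33, 0.88 and 0.06 in untreated cultures, in the order of the array numbers. All 3 BMP4 arrays lay below the other 6, whereas the TGF-β1 arrays overlapped the untreated arrays, of which number 2 stood highest. Gdf5 was 2.43-fold lower with BMP4 (log2 difference -1.28 ± 0.18 SE, n = 3 each, limma adjusted p = 0.0032). It was also 1.87-fold higher with TGF-β1 than with BMP4 (0.90 ± 0.18, adjusted p = 0.016). With TGF-β1 against untreated the difference was -0.38 ± 0.18 (adjusted p = 0.298), with a 95% interval of -0.79 to 0.03. This difference was -0.15 without untreated replicate 2, -0.57 without untreated replicate 3 and -0.22 without the 3 arrays numbered 2, and was not called in any of these fits (limma adjusted p = 0.635, 0.097 and 0.459). RNA was taken from whole cultures, in which fewer cells of a type and less RNA per cell cannot be told apart.

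The fall of Gdf5 with BMP4 held when any 1 of the 9 arrays was left out, with adjusted p from 0.0028 to 0.016 in limma. The difference was -1.05 without untreated replicate 2, the highest array, and -0.95 without the 3 arrays numbered 2 (adjusted p = 0.0086). The difference between TGF-β1 and BMP4 was not called without BMP4 replicate 2 (0.80, limma adjusted p = 0.067) or TGF-β1 replicate 2 (0.83, adjusted p = 0.064). It was called without all 3 arrays numbered 2 (0.73, adjusted p = 0.018).

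**Figure D2:**
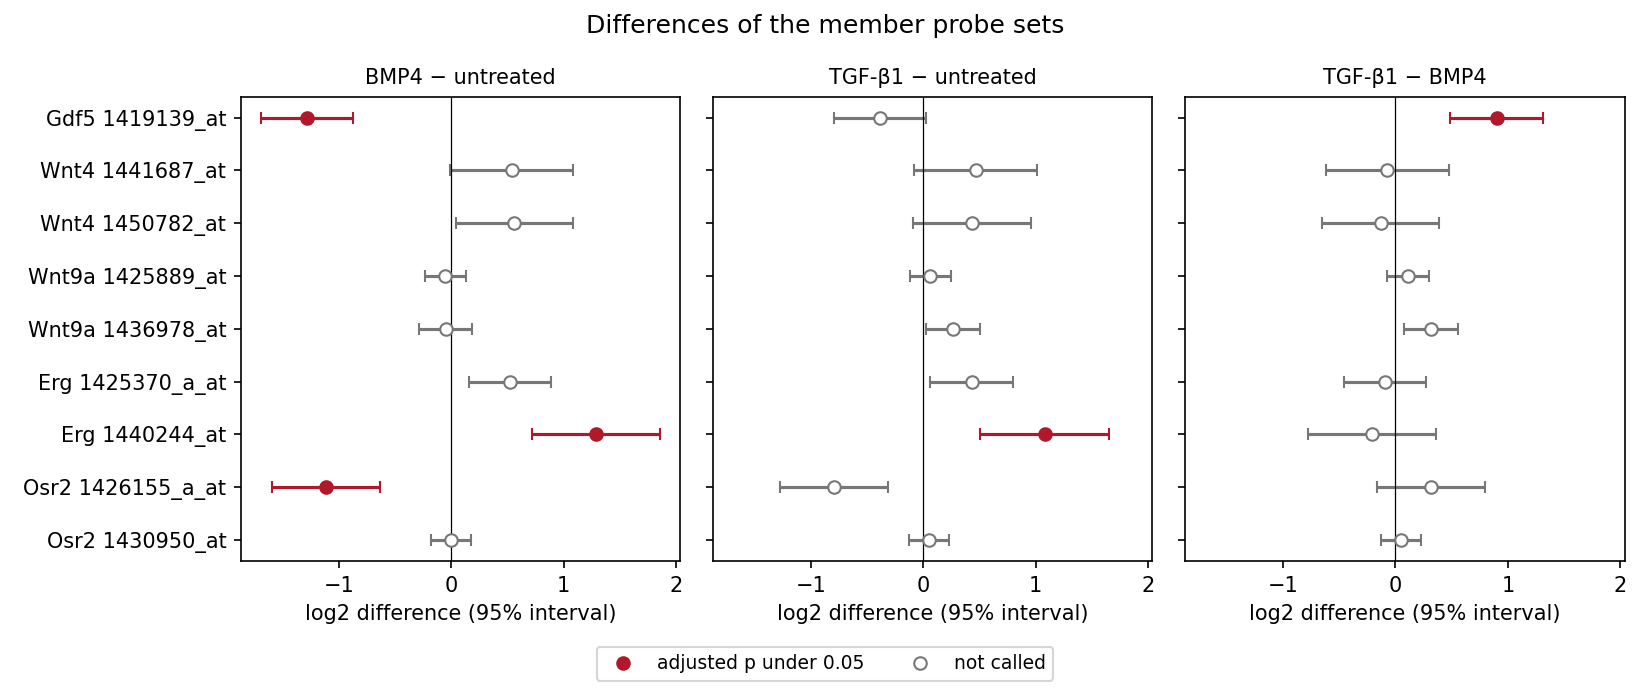
Log2 difference of each member probe set (points, x axis) with its 95% interval from limma (bars) in the 3 comparisons, filled red where the adjusted p was under 0.05. Gdf5 is called in the comparisons that involve BMP4, 1 probe set of Erg is called with both growth factors, and the intervals of both Wnt4 probe sets are wide.

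Wnt4 and Wnt9a code for secreted Wnt ligands of the interzone that act upstream of β-catenin. Wnt4 (chr4:137277635-137299501) is read by the probe sets 1441687_at and 1450782_at, whose values ran together (r = 0.990 over the 9 arrays, a description over arrays that share treatments). On 1441687_at, Wnt4 had 0.24, -0.12 and 0.46 with BMP4, 0.20, -0.12 and 0.28 with TGF-β1, and -0.07, -0.97 and 0.00 in untreated cultures. On 1450782_at it had 0.39, -0.07 and 0.53 with BMP4, 0.29, -0.12 and 0.29 with TGF-β1, and 0.00, -0.83 and -0.01 in untreated cultures. Number 2 was the lowest array of every group, and the groups overlapped on both probe sets.

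The Wnt4 differences with BMP4 were 0.54 ± 0.25 and 0.56 ± 0.23 (SE, limma adjusted p = 0.304 and 0.249), and were not called. With TGF-β1 they were 0.47 ± 0.25 and 0.43 ± 0.23 (adjusted p = 0.345 and 0.358), also not called. The differences were smaller without untreated replicate 2, at 0.23 and 0.29 with BMP4 (limma adjusted p = 0.589 and 0.505), and 0.15 and 0.16 with TGF-β1 (0.728 and 0.742). When all 3 arrays numbered 2 were left out they were 0.38 and 0.47 with BMP4 (adjusted p = 0.146 and 0.056), and 0.27 and 0.30 with TGF-β1 (0.293 and 0.196). Arrays of the same number showed the same direction for 3 of 3 numbers with both growth factors. On 1441687_at, Wnt4 was higher than in untreated cultures by 0.31, 0.85 and 0.46 with BMP4 and by 0.27, 0.85 and 0.28 with TGF-β1. On 1450782_at it was higher by 0.39, 0.76 and 0.54 with BMP4 and by 0.29, 0.70 and 0.30 with TGF-β1. When the number was fitted as a replicate block, the TGF-β1 differences were called (adjusted p = 0.046 and 0.027). The block also called Wnt4 with BMP4 (limma adjusted p = 0.026 and 0.0081), where the arrays numbered 1 did not deviate together from their group means. Between TGF-β1 and BMP4, Wnt4 differed by -0.07 ± 0.25 and -0.13 ± 0.23, with 95% intervals of -0.62 to 0.48 and -0.65 to 0.39.

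Wnt9a (chr11:59306849-59333552) is read by 1436978_at and 1425889_at, and these probe sets did not run together (r = -0.02). On 1436978_at, Wnt9a had -0.05, -0.32 and 0.00 with BMP4, 0.18, 0.27 and 0.14 with TGF-β1, and 0.06, -0.05 and -0.23 in untreated cultures. The TGF-β1 arrays were the 3 highest, with no overlap with either other group. The differences were small and none was called: -0.05 ± 0.11 with BMP4 (SE, limma adjusted p = 0.891), 0.27 ± 0.11 with TGF-β1 (adjusted p = 0.218) and 0.32 ± 0.11 between TGF-β1 and BMP4 (adjusted p = 0.124). The values of 1425889_at stayed between -0.12 and 0.16 on all 9 arrays, with differences of -0.05, 0.06 and 0.11 in the same order, and its variance was higher than that of 13.7% of all probe sets. Whether 1425889_at detects Wnt9a in these cultures cannot be told from centred values.

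Erg codes for an ETS family transcription factor that is found in joint-forming and disc-forming cells and also in endothelium (chr16:95359169-95586600). On 1440244_at it had 0.10, 0.84 and 0.09 with BMP4, 0.00, 0.55 and -0.15 with TGF-β1, and -1.005, -0.54 and -1.30 in untreated cultures. All 6 treated arrays lay above all 3 untreated arrays, and number 2 was the highest array within each group. Erg was 2.44-fold higher with BMP4 (log2 difference 1.29 ± 0.26 SE, limma adjusted p = 0.017) and 2.11-fold higher with TGF-β1 (1.08 ± 0.26, adjusted p = 0.045). The growth factors differed from each other by -0.21 ± 0.26 (TGF-β1 minus BMP4, adjusted p = 0.715), with a 95% interval of -0.78 to 0.36.

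Taken number by number, Erg on 1440244_at was higher with TGF-β1 than in the untreated array by 1.00, 1.09 and 1.14. These differences lay close to each other, while the values within either group were spread more widely. On the other probe set, 1425370_a_at, Erg had 0.04, 0.59 and 0.00 with BMP4, -0.08, 0.36 and 0.07 with TGF-β1, and -0.38, -0.17 and -0.40 in untreated cultures. Its groups did not overlap either, and its values followed those of 1440244_at (r = 0.951 over 9 arrays).

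The differences of Erg on 1425370_a_at were less than those on 1440244_at, at 0.52 ± 0.16 with BMP4 (SE, limma adjusted p = 0.112) and 0.43 ± 0.16 with TGF-β1 (adjusted p = 0.193, and 0.022 with the replicate block). The call on 1440244_at with BMP4 was lost without BMP4 replicate 2 (adjusted p = 0.055), untreated replicate 1 (0.060) or untreated replicate 3 (0.060). With TGF-β1 it was lost without any 1 of 7 arrays (limma adjusted p from 0.058 to 0.129), and held without untreated replicate 2 or BMP4 replicate 2. It was also lost in a fit of the TGF-β1 and untreated arrays alone (adjusted p = 0.057). Without the 3 arrays numbered 2, Erg was called with BMP4 (1.24, adjusted p = 0.0036) and with TGF-β1 (1.07, adjusted p = 0.0089).

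Endothelial markers were read beside Erg, since endothelium transcribes it too. Of 18 endothelial genes, 0 were called with BMP4 and 0 with TGF-β1 by limma. At an unadjusted p under 0.05, 1 was higher and 1 lower with BMP4, where 10.1% and 11.3% of all genes were, and 3 were higher and 1 lower with TGF-β1. With the replicate block, 2 of the 18 were called higher and 1 lower with TGF-β1. When the arrays numbered 2 were left out, 1 was higher and 0 lower with each growth factor. The median log2 differences of the 18 genes were -0.06 with BMP4 and 0.03 with TGF-β1. Single genes ran from -0.37 to 0.49 with BMP4 and from -0.41 to 0.73 with TGF-β1. Pecam1 and Cdh5, which code for adhesion proteins of endothelial junctions, differed by -0.19 ± 0.13 and -0.05 ± 0.10 with BMP4 and by -0.09 ± 0.13 and -0.16 ± 0.10 with TGF-β1. The summed value of the 18 genes ranged from -0.90 to 0.73 with BMP4, from -0.11 to 1.55 with TGF-β1 and from -0.57 to 0.70 in untreated cultures, and these ranges overlapped. Taken number by number, this sum was higher with TGF-β1 than in untreated cultures for 3 of 3 numbers (-0.11, 1.55 and 1.31 with TGF-β1 against -0.57, -0.46 and 0.70 in untreated cultures). Fli1, the ETS gene most closely related to Erg, had 0.00, 0.46 and -0.26 with BMP4, 0.31, 1.01 and 0.21 with TGF-β1, and -0.49, -0.07 and -0.36 in untreated cultures. Its differences of 0.38 ± 0.23 with BMP4 and 0.82 ± 0.23 with TGF-β1 were not called (limma adjusted p = 0.478 and 0.081). With TGF-β1, Fli1 was called with the replicate block (adjusted p = 0.0030) and without the 3 arrays numbered 2 (0.69, adjusted p = 0.039).

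Osr2 codes for a zinc finger transcription factor of joint and limb mesenchyme (chr15:35296098-35303305). On 1426155_a_at it had -0.37, -0.26 and -0.40 with BMP4, 0.00, -0.18 and 0.09 with TGF-β1, and 0.24, 1.32 and 0.73 in untreated cultures. The 3 groups did not overlap: the BMP4 arrays were lowest, the TGF-β1 arrays lay between and the untreated arrays were highest and most spread. Osr2 was 2.16-fold lower with BMP4 (log2 difference -1.11 ± 0.22 SE, limma adjusted p = 0.015). With TGF-β1 the difference was -0.79 ± 0.22 and was not called (adjusted p = 0.072), although it was called with the replicate block (adjusted p = 0.044), without untreated replicate 1 (-1.06, adjusted p = 0.015) and after quantile normalization (adjusted p = 0.041). It was -0.51 without untreated replicate 2 (limma adjusted p = 0.111) and -0.44 without the 3 arrays numbered 2 (adjusted p = 0.254), and was not called in either fit. Between TGF-β1 and BMP4, Osr2 differed by 0.32 ± 0.22 (adjusted p = 0.463).

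The fall of Osr2 with BMP4 was not called without BMP4 replicate 1 (-1.10, limma adjusted p = 0.058) or in a fit of BMP4 and untreated arrays alone (adjusted p = 0.053). It was called without the 3 arrays numbered 2 (-0.88, adjusted p = 0.038). The other probe set of Osr2, 1430950_at, stayed between -0.17 and 0.04 on all 9 arrays. Its variance was higher than that of 6.78% of all probe sets, and its differences of 0.00 with BMP4 and 0.05 with TGF-β1 were not called. The probe sets did not run together (r = -0.28), and whether 1430950_at detects Osr2 here cannot be told.

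**Figure D3:**
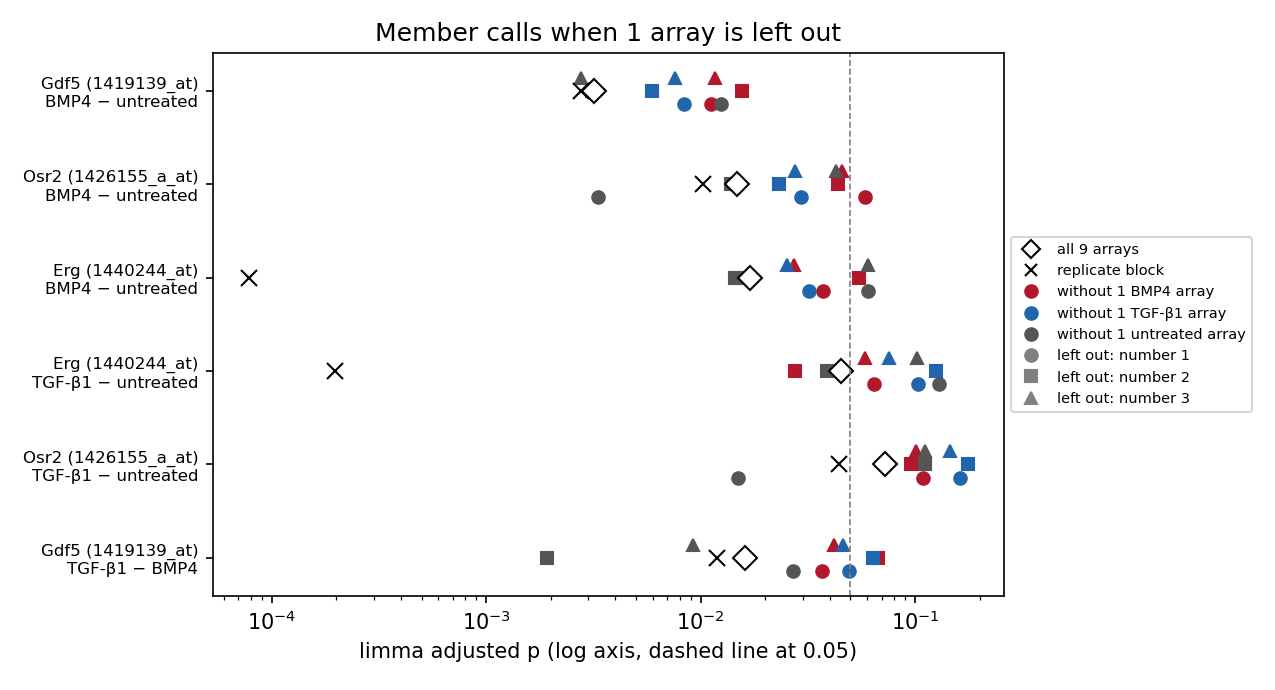
Limma adjusted p (x axis, log scale, dashed line at 0.05) of the members called in a comparison, and of Osr2 with TGF-β1, with all 9 arrays (diamond), with the replicate block (cross) and without 1 array (coloured by the group and shaped by the number of the array left out). Gdf5 with BMP4 stays left of the line throughout, while Erg with TGF-β1 passes it without any 1 of 7 arrays.

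In the fit with the replicate block, 3 of the 5 genes were called with TGF-β1, namely Wnt4 and Erg higher and Osr2 lower. With BMP4 the same fit called 4 of the 5, Wnt4 and Erg higher and Gdf5 and Osr2 lower. Of 45037 probe sets, 4029 were called with TGF-β1 against 1993 without the block, and 4069 with BMP4 against 2449. These totals count probe sets and not genes. Between TGF-β1 and BMP4 the block moved the count over all probe sets to 5252, against 3110 without it, and left 1 member gene called. The members also differed in how they tracked each other over the 9 arrays, which is a description since the arrays share treatments. Gdf5 and Osr2 ran together (r = 0.81), Wnt4 ran against Osr2 (r = -0.79) and Gdf5 (r = -0.66), and Erg ran against Osr2 (r = -0.68) and Gdf5 (r = -0.59). The r of Wnt9a with the other members was 0.40 with Gdf5 and less in size with the rest.

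The genes most like each member over the 9 arrays were also sought, among 18193 genes. Gdf5 was most like Nrp2, a semaphorin and VEGF co-receptor gene (r = 0.986), Enpp5 (0.984) and Ly6e (0.983), and 241 genes had an r above 0.9 with it. Osr2 was most like Aldh1a2, whose product makes retinoic acid (r = 0.979), Traf4 (0.967) and Syt14 (0.963). Erg was most like Tmem45a (0.975), the semaphorin gene Sema3c (0.970) and Plod1, which codes for a lysyl hydroxylase of collagen (0.969). Aldh1a2 differed by -1.14 with BMP4 and -0.88 with TGF-β1, and Sema3c by 0.75 and 0.78. The closest genes to Wnt4 were Pwwp2b (0.984), Eif3b (0.968) and 2210407C18Rik (0.967), and those to Wnt9a were Gpr132 (0.963), Hdac4 (0.932) and Ssbp4 (0.928). An r above 0.9 was reached by 68 genes with Erg, 55 with Osr2, 46 with Wnt4 and 9 with Wnt9a. A high r over 9 arrays was thus shared by many genes for some members and by few for Wnt9a.

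Among 20 further measured genes of the forming joint (of 22 listed), 1 rose and 5 fell with BMP4, with a median log2 difference of -0.42, and 0 rose and 3 fell with TGF-β1, with a median of -0.08. The median over all genes was 0.00 with BMP4 and 0.01 with TGF-β1. Nog, which codes for the BMP antagonist noggin that joints need in order to form, had 2.92, 3.23 and 2.86 with BMP4, 0.00, 0.11 and 0.00 with TGF-β1, and -0.33, -0.71 and -0.03 in untreated cultures. It thus stood far above every other array with BMP4 (3.36 ± 0.16, limma adjusted p = 3.7e-05) and was not called with TGF-β1 (0.40 ± 0.16, adjusted p = 0.217). Osr1, the close paralog of Osr2, had -0.31, 0.00 and -0.18 with BMP4, -0.21, -0.09 and 0.20 with TGF-β1, and 1.75, 2.13 and 1.59 in untreated cultures. Its falls, 3.97-fold with BMP4 (-1.99 ± 0.15, adjusted p = 1.3e-04) and 3.62-fold with TGF-β1 (-1.86 ± 0.15, adjusted p = 2.6e-04), were called with both growth factors.

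The secreted Wnt modulator gene Sfrp2 fell with BMP4 (-1.43 ± 0.16, SE) and with TGF-β1 (-1.34 ± 0.16). Tgfbr2, the type II receptor for TGF-β, and Lgr5, an R-spondin receptor gene of interzone cells, fell with BMP4 (-1.35 ± 0.16 and -1.21 ± 0.15) and were not called with TGF-β1 (0.24 ± 0.16 and -0.28 ± 0.15). Between TGF-β1 and BMP4 they were higher with TGF-β1 by 1.59 ± 0.16 and 0.93 ± 0.15. Wnt5a, the ligand of noncanonical Wnt signalling, fell with TGF-β1 (-0.996 ± 0.14). Prg4, the lubricin gene of the joint surface, had -0.28, -0.19 and -0.85 with BMP4, 1.82, 3.01 and 1.60 with TGF-β1, and 0.00, 2.02 and -0.17 in untreated cultures. It was called between TGF-β1 and BMP4 (2.58 ± 0.54, limma adjusted p = 0.019) and in neither comparison with untreated, whose array numbered 2 lay among the TGF-β1 arrays. With TGF-β1 against untreated, Prg4 differed by 1.52 (limma adjusted p = 0.164) and was called with the replicate block (adjusted p = 0.016) and without the arrays numbered 2 (1.79, adjusted p = 0.0065). With the replicate block, the count for TGF-β1 was 2 higher and 4 lower, and between TGF-β1 and BMP4 it was 6 and 3 in place of 3 and 2. Without the 3 arrays numbered 2, the counts were 1 higher and 4 lower with BMP4 and 1 and 3 with TGF-β1. In that fit Lgr5 was not called between TGF-β1 and BMP4 (0.78, limma adjusted p = 0.054), nor was Col3a1 with BMP4 (-0.53, adjusted p = 0.079).

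**Figure D4:**
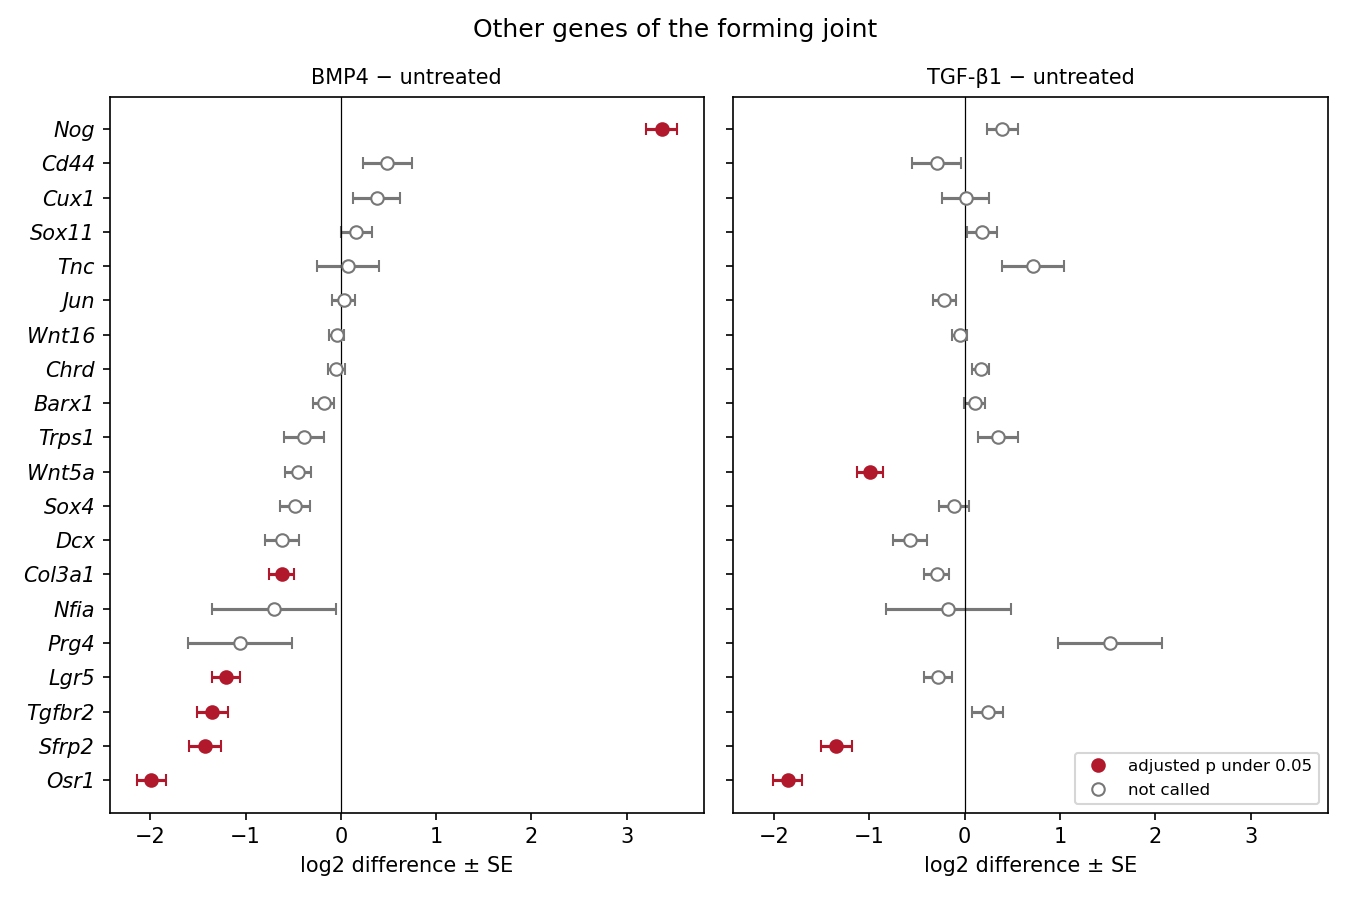
Log2 difference ± SE (points and bars, x axis) of 20 further genes of the forming joint (y axis) with BMP4 and TGF-β1 against untreated, filled red where the limma adjusted p was under 0.05. Osr1 and Sfrp2 are lower with both growth factors, Nog is higher with BMP4, and Lgr5, Tgfbr2 and Col3a1 are lower with BMP4.

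Other ligand genes of the TGF-β superfamily, the wider family of Gdf5, moved in both directions. Of 12 measured genes for GDF, BMP and related ligands, 2 were higher and 2 lower with BMP4. With TGF-β1, 0 were higher and 1 lower (2 and 2 with the replicate block, 0 and 2 without the arrays numbered 2). Gdf10 was higher with BMP4 (0.82 ± 0.17) and lower with TGF-β1 (-1.13 ± 0.17), Bmp4 itself was lower with BMP4 (-1.51 ± 0.28, limma adjusted p = 0.012), and so was the inhibin βB gene Inhbb (-0.74 ± 0.08). On the receiving side of GDF5, 9 of 21 receptor, Smad and antagonist genes were higher and 0 lower with BMP4, and 4 were higher and 0 lower with TGF-β1 (5 and 2 with the replicate block, 2 and 0 without the arrays numbered 2). The antagonists and inhibitory Smads Bambi, Smad6 and Smad7 rose with BMP4 by 1.94 ± 0.10, 1.79 ± 0.13 and 1.12 ± 0.10. Bmpr1b, the type I receptor that GDF5 prefers, differed by -0.15 ± 0.15 with BMP4 and -0.28 ± 0.15 with TGF-β1 and was not called.

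Apart from Wnt4 and Wnt9a, 0 of 17 Wnt ligand genes were higher and 2 lower with BMP4 by limma, namely Wnt11 (-0.86 ± 0.12) and Wnt5b (-1.34 ± 0.20), and with TGF-β1 0 were higher and 1 lower, Wnt5a. Of 15 canonical Wnt target genes, 6 were higher and 3 lower with BMP4, and 1 was higher and 0 lower with TGF-β1 (2 and 0 both with the replicate block and without the arrays numbered 2). Axin2, a common readout of β-catenin signalling, differed by -0.03 ± 0.16 with BMP4 and 0.01 ± 0.16 with TGF-β1 and was not called. Among the higher target genes were Myc (1.00 ± 0.09) and Lef1 (0.97 ± 0.13), and the lower ones included Twist1 (-0.79 ± 0.09) and Lgr5. In the list of 27 Wnt receptor and pathway genes, 4 were higher and 4 lower with BMP4, and 0 higher and 3 lower with TGF-β1 (2 and 6 with the replicate block, 2 and 3 without the arrays numbered 2). Frzb, a secreted Wnt antagonist gene first found in cartilage, fell with TGF-β1 by 0.86 on the log2 scale.

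Of 15 other ETS family genes, 1 was called with BMP4, Elf1 (0.60 ± 0.15), and 2 with TGF-β1, Elk3 (0.52 ± 0.09) and Elf1 (-0.77 ± 0.15). With the replicate block 4 were higher and 1 lower with TGF-β1, and without the 3 arrays numbered 2 Elk3 was not called (0.51, limma adjusted p = 0.104). The cartilage list, which holds genes that interzone cells lose, had 4 of 16 higher and 0 lower with BMP4, and 1 higher and 0 lower with TGF-β1. Without the 3 arrays numbered 2 these counts were 6 and 0 with BMP4, and 0 and 0 with TGF-β1. With the replicate block, 4 were higher and 2 lower with TGF-β1, and 12 were higher and 0 lower with BMP4. For BMP4 and untreated, the arrays numbered 1 did not deviate together from their group means, and whether the numbers pair these groups is not stated. The median log2 difference of the 16 genes over all arrays was 0.80 with BMP4 and -0.15 with TGF-β1. Sox9, the transcription factor gene of cartilage, had 1.18, 2.13 and 1.26 with BMP4, -0.20, 0.01 and -0.42 with TGF-β1, and -0.33, 0.00 and -0.35 in untreated cultures. All BMP4 arrays stood above the other 6 (1.75 ± 0.23, limma adjusted p = 0.0021), and TGF-β1 and untreated arrays overlapped (0.02 ± 0.23).

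Marker lists of cells that the dissection could carry along were read beside these results. Of 12 muscle genes, 1 was higher and 1 lower with BMP4 and 0 were called with TGF-β1, where the replicate block called 0 higher and 4 lower. All 12 differences with TGF-β1 were negative, from -0.43 to -0.06, and 5 were lower at an unadjusted p under 0.05. The summed muscle value ran from -2.59 to -0.57 with TGF-β1, against 0.46 to 1.58 in untreated cultures. Of 11 neuron genes, 0 were higher and 1 lower with each growth factor, and the block called 0 higher and 3 lower with TGF-β1. Of 6 measured neural crest and glia genes, 1 was higher and 0 lower with BMP4 and 0 were called with TGF-β1 (1 lower with the block), and of 8 notochord and epithelium genes 1 was higher and 1 lower with BMP4 and 1 was higher with TGF-β1. Of 12 macrophage genes, 0 were called with BMP4 and 2 were lower with TGF-β1. The summed macrophage value ran from -2.45 to 0.22 with TGF-β1, against 0.25 to 3.70 in untreated cultures. For the notochord and epithelium genes the sum ran from 0.17 to 2.19 with TGF-β1, against -1.84 to -0.78 in untreated cultures. The neuron sums of these groups overlapped, as did the neural crest and glia sums. In the fit without the arrays numbered 2, 1 of the muscle genes was higher and 0 lower with BMP4, 1 of the neuron genes was higher and 1 lower with BMP4, and 2 neuron genes and 1 macrophage gene were lower with TGF-β1. Of 8 erythroid genes 0 were called with either growth factor by limma. At an unadjusted p under 0.05, 5 were lower with BMP4 and 4 with TGF-β1, where 11.3% and 14.3% of all genes were. With the 3 arrays numbered 2 left out, 3 of the 8 were called lower with BMP4 and 5 with TGF-β1, with median log2 differences of -1.10 and -1.15, against -0.80 and -0.69 over all arrays. Their summed value was 6.55 and 7.27 in untreated replicates 1 and 3, against -1.60 in untreated replicate 2, while it ranged from -2.82 to 0.55 with BMP4 and from -3.41 to 0.82 with TGF-β1. Untreated replicate 2 was also the array with the highest Gdf5 and Osr2 and the lowest Wnt4. The part of these cell types in the values of the members was not tested.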

How the data were processed

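RNA from 9 micromass cultures (3 with BMP4, 3 with TGF-β1, 3 untreated) was measured on Affymetrix mouse genome arrays after 2-cycle amplification of 50 ng of total RNA. The deposited log2 values were made by the authors with RMA in GeneSpring and then centred on the median of each probe set, which was 0 for all 45101 probe sets. The RMA version was not given in the sources used here. Values were used as deposited, without a filter on low signal, and 64 control probe sets were dropped. Of the other probe sets, 34945 carried 1 gene symbol in the platform annotation, 932 several and 9160 none.

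Differences were fitted with limma 3.58.1 in R 4.3.3 over all 9 arrays (6 residual degrees of freedom) and adjusted by Benjamini-Hochberg over 45037 probe sets. Tests are two-sided, and a call is an adjusted p under 0.05. Errors are SE of the log2 difference, and the number of arrays limits precision. An exact permutation test of 3 against 3 arrays cannot go below p = 0.1 and was not used. Gene positions and promoters come from RefSeq (GRCm38.p6), matched through Entrez identifiers or symbols.

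Members and gene lists were chosen with earlier results of these data known. Named genes are all members, the 3 genes most like each by Pearson correlation, up to 4 called genes of each list with the smallest adjusted p in each comparison with a growth factor, and Nog, Osr1, Fli1, Axin2, Sox9 and Pax1. Endothelial markers could be named because Erg is an endothelial gene. Bmpr1b and Col3a1 were added after their values were seen.

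Arrays with the same number deviated together from their group means for TGF-β1 and untreated (r = 0.137, 0.494 and 0.277) and for TGF-β1 and BMP4 (r = 0.290, 0.497 and 0.377), so that blocked values stand beside these comparisons. For BMP4 and untreated (r = -0.05, 0.502 and 0.239) the arrays numbered 1 did not deviate together. Whether the numbers pair these 2 groups is not stated, and these r values do not settle it. Alternatives were the replicate block, a fit of 2 groups, leaving out each array or the 3 arrays numbered 2, quantile normalization, median centring of arrays, a robust prior, array weights, the methods' test, control probe sets kept and 1 probe set a gene. Median centring could change nothing, since every array already had a median of 0. For the gene lists and their genes, results with the block and without the arrays numbered 2 were added after seeing the data.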

Additional observations from a re-analysis of the deposited data

How the results depend on the processing

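The methods' t-test with unequal variances called 0, 0 and 11 probe sets after Benjamini-Hochberg adjustment in BMP4 against untreated, TGF-β1 against untreated and TGF-β1 against BMP4, and 0, 0 and 0 member genes. At an unadjusted p under 0.05 and at least 2-fold it called 433, 253 and 543 probe sets, with Gdf5 and Erg with BMP4, and Erg with TGF-β1, among the members. With limma, 2449, 1993 and 3110 probe sets were called, and with the replicate block 4069, 4029 and 5252. Neither for BMP4 nor for TGF-β1 against untreated did every array correlate best with its own number. In the comparison of BMP4 with untreated, the block added calls of Wnt4 (limma adjusted p = 0.026 and 0.0081) and of Erg on 1425370_a_at (0.0084). For the gene lists with BMP4 it called 12 of 16 cartilage genes higher and 0 lower, 1 of 20 joint genes higher and 9 lower, 4 and 8 of 27 Wnt pathway genes, 0 and 4 of 17 Wnt ligand genes, 2 and 1 of 15 ETS genes, 1 and 2 of 11 neuron genes, 1 and 1 of 6 neural crest and glia genes and 1 and 0 of 18 endothelial genes. It changed no other call of a member. A fit of the 2 groups alone called 1617 with BMP4 and 1172 with TGF-β1, with 0 member genes for TGF-β1. Without the 3 arrays numbered 2 the counts were 1200, 888 and 1819, and with 1 probe set a gene they were 1541 with BMP4 and 1986 between TGF-β1 and BMP4. After quantile normalization 2 member genes were called with TGF-β1. Quantile normalization moved the median difference over all probe sets by less than 0.01, but single members moved more. Gdf5 with BMP4 went from -1.28 to -1.08. With TGF-β1, Erg on 1440244_at went from 1.08 to 1.32 and Osr2 on 1426155_a_at from -0.79 to -0.91.

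Leaving out 1 array at a time gave 1431 to 2262 probe sets with BMP4, 867 to 2053 with TGF-β1 and 1877 to 3330 between TGF-β1 and BMP4, and 0 to 1 member gene in each of the TGF-β1 comparisons. Differences that turned sign were all uncalled ones near 0. In these fits Wnt9a with BMP4 ran from -0.129 to 0.050 (1436978_at) and from -0.11 to 0.0011 (1425889_at). Osr2 on 1430950_at ran from -0.043 to 0.064 with BMP4 and from -0.014 to 0.091 between TGF-β1 and BMP4. In the comparison of TGF-β1 with BMP4, Wnt4 ran from -0.23 to 0.061 (1441687_at) and from -0.31 to 0.0091 (1450782_at), and Erg from -0.42 to 0.039 (1440244_at) and from -0.22 to 0.096 (1425370_a_at). With BMP4, Wnt9a on 1436978_at was 0.063 and Osr2 on 1430950_at -0.065 without the arrays numbered 2, and Osr2 was -0.0055 after quantile normalization and -0.018 with array weights. The cause of these shifts was not tested. Without levels or scanner signals, signal over background could not be judged, so a flat probe set may be one without signal.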
